A study of Mus musculus with 4 samples.

Results

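The genes of the tumour necrosis factor (TNF) receptor superfamily and of its ligands were compared between Notch1-IC tumours and normal thymus of the mouse, in T-lineage cells that carry both CD4 and CD8 (double-positive, DP). They were taken by symbol: every probe set whose annotated gene symbol begins with Tnfrsf or Tnfsf and a number, or is Tnf, Lta, Ltb, Ltbr, Fas, Fasl, Cd27, Cd40, Cd40lg, Cd70 or Ngfr. This gave 65 of the 45101 probe sets on the array. Of these, 62 carry 1 gene symbol and 3 carry several, and the 62 stand for 38 of 18193 genes, namely 24 receptors, 13 ligands and Tnfsf13os, a transcript of the opposite strand that is neither. The rule uses symbols and no measured value, though earlier results of these data were known when it was set.

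TNF ligands are made as trimers on the cell surface or shed from it, and their receptors carry cysteine-rich repeats outside the cell. Inside the cell, receptors with a death domain recruit adaptors such as FADD and TRADD and can start apoptosis through caspase 8, whereas the others bind TRAF proteins and activate NF-kB and MAP kinases. In the thymus the family is known for co-stimulation of T cells, for Fas in the death of lymphocytes, and for the signals by which developing T cells help thymic epithelium to mature through RANK, CD40 and the lymphotoxin beta receptor.

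The data are 4 Affymetrix mouse arrays. 2 hold RNA of DP cells from normal thymus (genotype WT) and 2 hold RNA of DP cells from peripheral tumours, called thymoma (genotype T-ALL, that is T-cell acute lymphoblastic leukaemia), which over-express Notch1-IC, the active intracellular part of the receptor Notch1. All 4 carry the genetic background given as WT C57/BLACK6. The promoter or vector behind Notch1-IC, the ages of the mice and the number of animals were not stated in the sources used here. The p-values therefore rest on the spread within pairs of samples that may be technical repeats. Titles, sources and genotypes set the groups, although another label, the sample type, calls the 2 normal samples tumour as well. Tissue site (periphery against thymus) and transformation cannot be told apart.

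All 10 measured markers of the DP stage, among them Cd4, Cd8a and Rag1, lay above background on every array, and 9 of the 10 fell in the tumour arrays. In counts of markers, rose and fell mean an adjusted p under 0.05 in limma's test given below. By that test 17.3% of all genes rose and 12.4% fell. Background was set for each array by the brightest of its 27 bacterial control probe sets and came to 12.3 to 17.8 intensity units. Markers of other cells moved with the groups as well. Of 11 macrophage and monocyte markers 8 rose, and their summed intensity was 127 to 157 in the normal and 2051 to 2193 in the tumour arrays. Of 11 neutrophil markers 7 rose (211 to 271 against 2176 to 2224), of 9 dendritic markers 4 (329 to 333 against 997 to 1249), of 9 cytotoxic markers 5 (1202 to 1227 against 5570 to 5576) and of 8 regulatory T cell markers 5 (1107 to 1144 against 4131 to 4577). Of 9 B cell markers 1 rose and 2 fell (4802 to 5464 against 2681 to 2887), and of 12 epithelial and stromal markers 1 rose and 2 fell (414 to 488 against 358 to 378). Single genes weigh heavily in some sums. Most of the cytotoxic sum was Gzma (1034 and 1035 against 5030 and 5040). Most of the regulatory T cell sum was Ikzf2 (999 and 1026 against 2245 and 2427). The largest part of the epithelial and stromal sum was Pecam1 (302 and 229 against 155 and 156), which fell, while Krt5 rose. The thymic epithelial factor Foxn1 and the B cell receptor chain Cd79a lay near or below background on all 4 arrays. For beta-actin, the 3' control probe set over the 5' one read 1.20 and 1.28 in the normal and 2.46 and 2.53 in the tumour arrays. The part of these differences in the results was not tested, and fewer cells of a type cannot be told apart from less RNA per cell.

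The comparison addressed which of these receptors and ligands differ between the tumour and normal samples of DP cells. Tnfrsf18 (GITR), Fas, Tnfrsf25, Tnfrsf1a, Tnfrsf13b, Cd27 and the ligand Ltb fell in the tumour arrays. Ngfr, Tnfrsf1b, Cd40, Tnfrsf19, Tnfrsf9 and the ligands Tnfsf11 (RANKL) and Tnfsf4 (OX40L) rose there. The largest falls were those of Tnfrsf18, 6.26-fold, and Fas, 4.91-fold, and the largest rises those of Ngfr and Tnfsf11, the latter 8.06-fold. With limma's moderated test, in which the variance prior follows the level of expression, 7 of the 38 members passed upwards and 7 downwards (adjusted p under 0.05 over all genes). Over all 18193 genes 29.7% passed this test, 17.3% higher and 12.4% lower, and 36.8% of the members did, so the family's share lies near the background. The median log2 difference was 0.30 over the members and 0.088 over all genes. With limma's default prior, which is the same for all genes, 0 members rose and 2 fell, Tnfrsf18 and Tnfrsf25, against 6.38% of all genes called (4.17% higher and 2.2% lower), and 8 members were higher at an unadjusted p below 0.05. Scaled to the bacterial hybridization controls, which lay 0.60 (log2) higher in the tumour arrays, 3 members rose and 9 fell, while 36.2% of all genes passed (7.31% higher and 28.9% lower) and their median moved to -0.51.

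**Figure D1:**
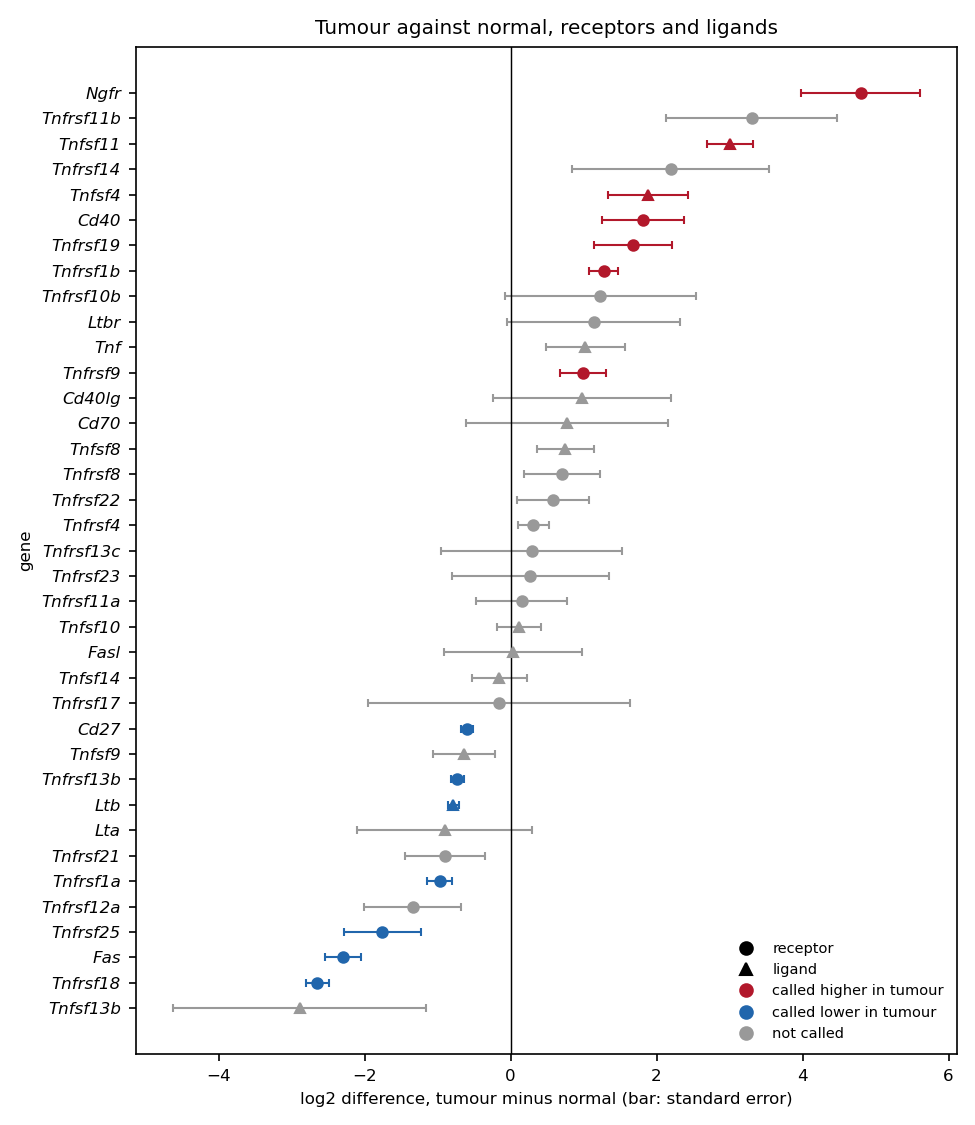
Log2 difference, tumour minus normal (horizontal axis), for the 37 receptors and ligands, with limma's moderated standard error as a bar. Circles stand for receptors, triangles for ligands and colours for limma's calls. Ngfr and Tnfsf11 stand highest among the called genes and Fas and Tnfrsf18 lowest, while the grey genes with long bars are mostly those near background. The points of Tnfrsf19 and Tnfrsf25, and of grey genes below background in a group, are fitted values and no measured folds.

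The sequences before the start sites of the genes with the largest changes are shown so that they can be set beside the levels, since these 4 moved most among the members that passed. They are the 250 bases before the annotated start, from RefSeq on GRCm38.p6, written 5′ to 3′ on the strand of the gene. Capitals mark 2 motifs searched on both strands, an NF-kB pattern, GGG and CC with 5 bases of any kind between them, and the core TGGGAA bound by RBPJ, the DNA-binding partner of Notch. 29 of the 38 member genes matched the table, with 33 promoters.
Tnfrsf18, chr4:156026072-156026321, plus strand: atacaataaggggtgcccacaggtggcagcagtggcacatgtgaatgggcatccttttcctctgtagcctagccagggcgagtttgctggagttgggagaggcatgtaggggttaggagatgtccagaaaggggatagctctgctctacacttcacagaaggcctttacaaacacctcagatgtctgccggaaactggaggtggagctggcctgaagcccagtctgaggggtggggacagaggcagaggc
Fas, chr19:34290409-34290658, plus strand: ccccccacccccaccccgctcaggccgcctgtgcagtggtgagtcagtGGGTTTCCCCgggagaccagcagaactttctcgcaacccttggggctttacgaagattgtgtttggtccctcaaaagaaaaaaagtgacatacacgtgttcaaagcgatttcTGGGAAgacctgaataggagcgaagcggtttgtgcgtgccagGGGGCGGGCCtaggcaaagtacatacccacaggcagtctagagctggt
Tnfsf11, chr14:78308044-78308293, minus strand: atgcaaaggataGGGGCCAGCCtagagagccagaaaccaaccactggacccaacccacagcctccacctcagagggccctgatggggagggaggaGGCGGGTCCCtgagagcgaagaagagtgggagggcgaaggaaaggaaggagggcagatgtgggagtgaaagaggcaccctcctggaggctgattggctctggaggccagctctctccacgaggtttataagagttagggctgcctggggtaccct
Ngfr, chr11:95587699-95587948, minus strand: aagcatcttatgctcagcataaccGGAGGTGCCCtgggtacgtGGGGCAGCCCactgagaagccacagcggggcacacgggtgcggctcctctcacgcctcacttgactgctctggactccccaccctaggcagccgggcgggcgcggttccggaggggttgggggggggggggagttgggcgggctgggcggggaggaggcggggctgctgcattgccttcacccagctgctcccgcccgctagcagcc
The NF-kB pattern stood at 2 places each before Fas, Tnfsf11 and Ngfr and at 0 before Tnfrsf18, and TGGGAA at 1 place before Fas, 90 bases before its start, with no overlap of the 2 motifs. In windows of the same length, the NF-kB pattern occurs in 45.8% of all 32851 promoters and in 22 of the 33 member promoters, and TGGGAA in 21.6% of all and in 5 of the 33. A match says only that the letters are there.

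Among the 6 receptors with a death domain, 3 fell and 1 rose, where 12.4% of all genes fell and 17.3% rose. Differences of a class from all genes were not tested, here and below. Fas (CD95), the receptor of Fas ligand that triggers apoptosis, had intensities of 381 and 483 in the normal arrays and 115 and 66.5 in the tumour arrays. Both tumour arrays lay well below both normal ones, and the log2 difference was -2.30 ± 0.24 (limma adjusted p = 7.33e-05). Here and in all values below, ± gives limma's moderated standard error, with n = 2 per group. It draws on the variance of all genes, so it can be smaller or larger than the spread of the arrays alone would give. Tnfrsf1a, the TNF receptor that recruits TRADD, had 891 and 618 against 415 and 344, a difference of -0.97 ± 0.17 (adjusted p = 0.00158). Here the normal arrays differed from each other more than the tumour arrays did, without overlap between the groups. Tnfrsf25 (DR3), a co-stimulatory death receptor of T cells, had 31.4 and 33.2 in normal cells and, with 10.3 and 8.85, did not exceed background in either tumour array. It was at least 2.09-fold lower, counting each tumour array at its background level. Limma's test was made on the values as read, not on this bound (adjusted p = 0.0316). Leaving out 1 array ended the call for Tnfrsf25 in 3 of 4 cases, with an adjusted p of 0.151 and 0.169 without normal replicates 1 and 2 and 0.0596 without tumour replicate 2.

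Ngfr (p75), the low-affinity receptor of neurotrophins and a distant member of the family, had intensities of 2.13 and 18.8 in the normal and 182 and 169.8 in the tumour arrays. The tumour arrays were alike, and 1 of the 2 normal arrays lay below background. The log2 difference was 4.80 ± 0.81 (adjusted p = 0.00139), and it was 3.22 without normal replicate 1. Without normal replicate 2 the remaining normal value, 2.13, lay below background, and Ngfr was then at least 11.02-fold higher. The other 2 probe sets of Ngfr, with 0.52 to 6.42 in the normal and 0.87 to 16.2 in the tumour arrays, showed no such level, and the mean of the 3 gave 2.19 (adjusted p = 0.154). Tnfrsf10b (DR5), the receptor of TRAIL, read 10.4 and 1.38 against 7.25 and 10.9 and exceeded background on none of the 4 arrays with either probe set. Tnfrsf21 (DR6) had 35.9 and 20.8 against 19.5 and 10.9, which did not pass (-0.90 ± 0.55, adjusted p = 0.285).

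**Figure D2:**
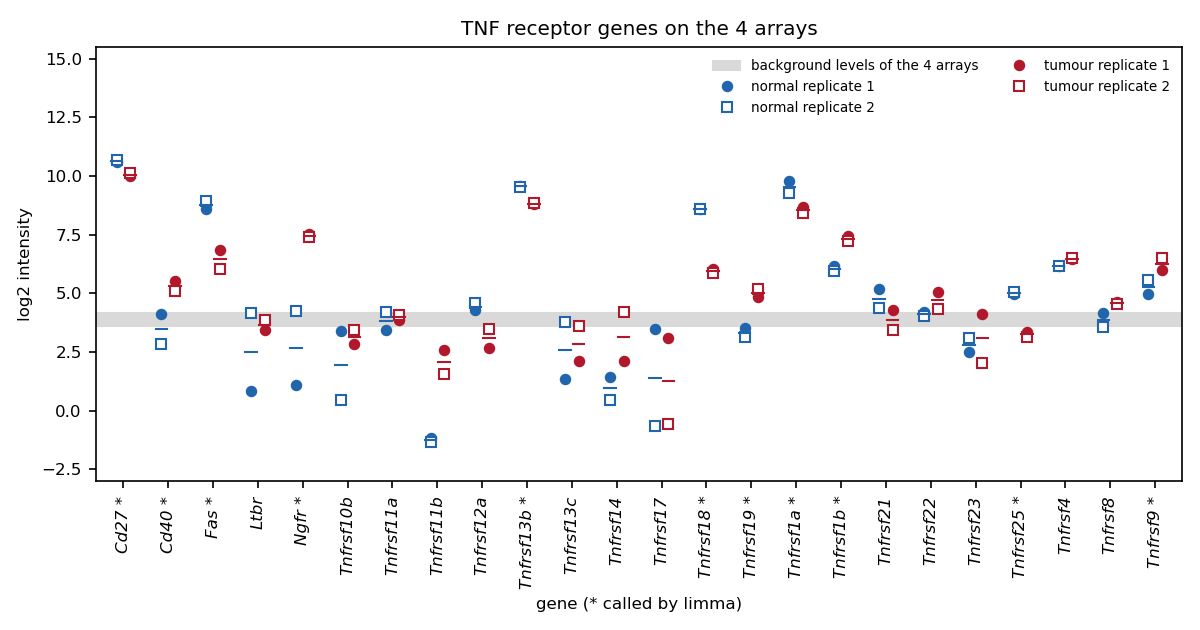
Log2 intensity (vertical axis) of the 24 receptor genes on each of the 4 arrays, with short lines at the group means, a grey band for the range of background levels and asterisks on genes called by limma. Fas and Tnfrsf18 drop towards the band in the tumour arrays, Ngfr rises from it, and receptors such as Tnfrsf17 and Tnfrsf10b lie in or under it on all arrays.

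Of the 8 TRAF-binding receptors known mainly from lymphocytes, 3 rose and 2 fell, beside 17.3% and 12.4% of all genes. Tnfrsf18 (GITR), a co-stimulatory receptor high on regulatory T cells, had 388 and 386 in the normal and 65.3 and 58.6 in the tumour arrays. The normal arrays were almost equal, and the log2 difference of -2.65 ± 0.16 (adjusted p = 1.98e-06) passed in each of the 13 alternatives that measured the gene, the default prior included. The only probe set of Tnfrsf18 is of a class that binds several transcripts of a gene. Its neighbour on chromosome 4, Tnfrsf4 (OX40), another co-stimulatory receptor, had 72.5 and 71.6 against 87.6 and 91.1. That difference, 0.31 ± 0.21, did not pass (adjusted p = 0.343). No protein-coding gene lies between the pair in GRCm38.p6, and the difference between their changes was not tested. Foxp3, the defining factor of regulatory T cells, lay at or below background on all 4 arrays, from 2.92 to 12.8. Of the other regulatory T cell markers 5 of 7 rose, Il2ra 58.2-fold, Ctla4 10.8-fold, Ikzf2 2.31-fold, Il10 at least 12.3-fold and Nt5e at least 2.44-fold. Their part in the fall of Tnfrsf18 was not tested.

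Cd27, the receptor of CD70, which supports thymocyte development and T cell survival, had 1549 and 1665 against 1015 and 1106. The groups lay apart with little spread, by -0.60 ± 0.085 (adjusted p = 0.000457), a 1.52-fold fall. Tnfrsf1b (TNFR2), the TNF receptor without a death domain, went the opposite way on its most intense probe set, with 71.0 and 61.4 against 172 and 148.5. The rise was 1.28 ± 0.20 (adjusted p = 0.000836). A second probe set of Tnfrsf1b read 43.3 and 15.8 against 36.3 and 2.93, and the mean of both gave -0.035. Tnfrsf1b is also known from myeloid cells and regulatory T cells, whose marker sums rose as given above. Of the 8 regulatory T cell markers 5 rose, while Foxp3 did not exceed background on any array. The part of these cells in the rise of Tnfrsf1b was not tested.

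Tnfrsf9 (4-1BB), induced on activated T cells, had 31.3 and 46.9 against 64.0 and 90.8. Its rise of 0.99 ± 0.32 (adjusted p = 0.0409) was smaller than that of Tnfrsf1b and ended when normal replicate 1 (adjusted p = 0.229) or tumour replicate 2 (0.234) was left out, with scaling to the hybridization controls (0.413) and with the mean of its probe sets (0.512). Its other 2 probe sets differed by -0.15 and 0.90. Cd40, the receptor of CD40 ligand on B cells, dendritic cells, macrophages and epithelium, had 17.3 and 7.15 against 45.7 and 33.7. The rise of 1.82 ± 0.56 passed narrowly (adjusted p = 0.0356), with 1 of the 2 normal arrays below background. It ended when normal replicate 2 (1.18, adjusted p = 0.145), tumour replicate 1 (0.192) or tumour replicate 2 (0.0940) was left out, with scaling to the hybridization controls (0.127) and with the mean of probe sets (0.0908). Among these carriers, the marker sums of dendritic cells and macrophages were higher in the tumour arrays as given above. Those of B cells and of epithelium and stroma were lower. The part of any of these cells in the rise of Cd40 was not tested. Without normal replicate 1 the remaining normal value lay below background, and Cd40 was at least 3.20-fold higher. Another probe set of Cd40 read 3.67 and 5.88 against 18.8 and 23.0 and was at least 1.49-fold higher, and the remaining one, with 12.7 and 18.5 against 33.0 and 14.6, had overlapping groups. Tnfrsf8 (CD30) had 18.0 and 12.0 against 24.5 and 23.4, and Tnfrsf14 (HVEM) 2.72 and 1.38 against 4.30 and 18.3, and neither passed (adjusted p = 0.387 and 0.289).

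The 3 receptors of the cytokines BAFF and APRIL, best known from B cells, were measured with different outcomes. Tnfrsf13b (TACI) had 773 and 730.2 in the normal and 448 and 459 in the tumour arrays. This fall of -0.73 ± 0.095 (adjusted p = 0.000279) was 1.66-fold and exceeded the spread within either group. The summed B cell markers were lower in the tumour arrays too, and most of that sum was Ighm, with 5040 and 4425 against 2662 and 2463. Among the other markers Cd79b fell 5.35-fold, Cd22 rose 6.17-fold, and Cd79a did not exceed background on any array. Their part in the fall of Tnfrsf13b was not tested. Tnfrsf13c (BAFF receptor) had 2.57 and 13.6 against 4.30 and 12.1, and Tnfrsf17 (BCMA) 11.1 and 0.63 against 8.43 and 0.67. Both lay at or around background, and their groups overlapped.

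Receptors of organ growth, bone and tissue repair were mostly dim. Tnfrsf19 (TROY), a receptor of skin, brain and hair follicles, did not exceed background in either normal array (11.5 and 8.75) and had 28.3 and 36.4 in the tumour arrays. It was at least 2.29-fold higher. Limma's test of the values as read, not of this bound, called it (adjusted p = 0.0401). That call was lost without any 1 of the 4 arrays, with scaling to the hybridization controls (0.159) and with the mean of probe sets (0.199). A second probe set of Tnfrsf19 read 1.55 and 5.57 against 54.6 and 80.3, at least 4.73-fold higher, and the remaining one read 21.0 and 8.32 against 6.82 and 1.23, above background on 1 normal array alone. Tnfrsf12a (Fn14), the receptor of TWEAK, was above background on both normal arrays and on neither tumour array. Its probe sets read 19.4 and 24.0 against 6.42 and 11.3, and 37.5 and 39.6 against 1.88 and 6.53. The first, which represents the gene, was at least 1.40-fold lower and did not pass (adjusted p = 0.180). The second was at least 2.50-fold lower and passed when all probe sets were tested (adjusted p = 0.0132). The gene passed with the mean of both (adjusted p = 0.0474), with scaling to the hybridization controls (0.0478) and without probe sets that may bind several transcripts (0.0106). Tnfrsf11a (RANK) had 10.9 and 18.4 against 14.6 and 16.9, and Ltbr, the lymphotoxin beta receptor, 1.80 and 18.1 against 10.9 and 14.5, both with overlapping groups.

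Decoy receptors bind ligands without signalling, and none of the 3 passed limma's test, with 1 higher at an unadjusted p below 0.05. That gene is Tnfrsf11b (osteoprotegerin), which binds RANKL, and at 0.45 and 0.40 against 5.97 and 2.93 it exceeded background on no array. Tnfrsf22 and Tnfrsf23, mouse decoys for TRAIL that are neighbours on chromosome 7, had 18.3 and 16.5 against 33.5 and 20.2, and 5.70 and 8.54 against 17.2 and 4.12. Tnfrsf22 differed by 0.58 ± 0.49 (adjusted p = 0.461), and neither Tnfrsf23 nor a probe set that carries both symbols exceeded background on any array.

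Of the 13 ligands 2 rose and 1 fell, 23.1% called beside 29.7% of all genes. Tnfsf11 (RANKL), the ligand of RANK known for osteoclast formation and for the maturation of thymic epithelium, had 19.8 and 38.0 in the normal and 199 and 245 in the tumour arrays. Both tumour arrays lay far above both normal ones, and the log2 difference was 3.01 ± 0.31 (adjusted p = 6.53e-05). Its second probe set went the same way, with 8.85 and 13.0 against 46.4 and 39.6 (2.00 ± 0.48). Tnfsf4 (OX40L), the ligand of OX40, had 6.98 and 13.3 against 36.8 and 34.4. The rise of 1.89 ± 0.55 (adjusted p = 0.0279), with 1 of the 2 normal arrays below background, ended when normal replicate 1 (adjusted p = 0.102), tumour replicate 1 (0.129) or tumour replicate 2 (0.111) was left out and with scaling to the hybridization controls (0.109). Without normal replicate 2 the remaining normal value lay below background, and Tnfsf4 was at least 2.23-fold higher. OX40L is known from dendritic cells, whose marker sum was higher in the tumour arrays. Of the 9 markers 4 passed, H2-Aa, Itgax, H2-Ab1 and Cd74, while Flt3, Zbtb46, Xcr1, Siglech and Ccr7 did not. The part of dendritic cells in the rise of Tnfsf4 was not tested.

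Ltb, lymphotoxin beta, which T cells use to signal to stroma, had 3083 and 2835 against 1768 and 1672. The fall of -0.78 ± 0.075 (adjusted p = 3.75e-05) was 1.72-fold, small but far beyond the spread within the groups. Its neighbours in the MHC region of chromosome 17 were dim. Tnf, the founding cytokine of the family, had 11.1 and 15.3 against 34.3 and 20.5 (1.02 ± 0.54, adjusted p = 0.214), and Lta, lymphotoxin alpha, had 13.4 and 27.4 against 45.5 and 2.32, where the tumour arrays lay on either side of the normal ones.

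**Figure D3:**
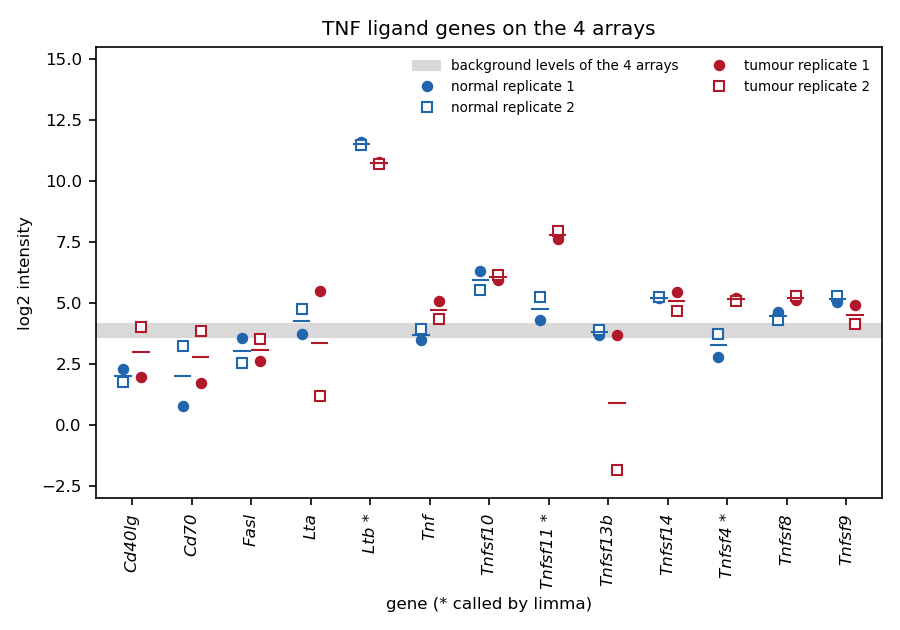
Log2 intensity (vertical axis) of the 13 ligand genes on each of the 4 arrays, drawn as for the receptors, with the background levels as a grey band. Ltb is lower and Tnfsf11 higher in both tumour arrays, while Fasl, Cd40lg and Cd70 scatter in and under the band.

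Ligands of the death receptors and of the co-stimulatory receptors did not pass otherwise. Fasl, the ligand of Fas, read 11.7 and 5.88 against 6.23 and 11.6, and neither of its probe sets exceeded background on any array. Tnfsf10 (TRAIL) had 80.3 and 47.1 against 62.7 and 70.3, with overlapping groups, and its other 2 probe sets differed by 0.89 and 0.73. Cd70, the ligand of CD27, had 1.72 and 9.58 against 3.30 and 14.5, and Cd40lg, the T cell ligand of CD40, had 4.87 and 3.42 against 3.95 and 16.4. Tnfsf8 (CD30 ligand), with 24.8 and 19.8 against 35.1 and 39.5, and Tnfsf9 (4-1BB ligand), with 33.2 and 38.9 against 30.6 and 17.5, lay above background on every array and apart between groups without passing (adjusted p = 0.201 and 0.337). Tnfsf14 (LIGHT), a ligand of HVEM and of the lymphotoxin beta receptor, had 36.8 and 38.1 against 44.1 and 25.8. Tnfsf13b (BAFF) had 13.1 and 15.0 against 12.8 and 0.28, with 1 normal and no tumour array above background. It did not pass (adjusted p = 0.277), but did without tumour replicate 1 (adjusted p = 0.0393), when the value of 0.28 stood alone for the tumour cells. Of the 2 ligand probe sets with several symbols, the first carries Tnfsf12 and its fusion transcript with Tnfsf13, and the second carries Tnfsf13 as well. Neither passed (limma adjusted p = 0.542 and 0.132 over all probe sets). The first differed by 0.56, and the second was at least 1.20-fold higher with 1 of the 2 tumour arrays above background.

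Of the 24 members that did not pass, 14 lacked a group with both arrays above background, and the opposite-strand transcript Tnfsf13os was among them, with 1.48 and 18.4 against 14.1 and 15.1. A second probe set of Tnfsf13os read 17.0 and 6.05 against 2.90 and 1.23. The intensities of the 24 ran from 0.28 to 91.1. In 25 of the 38 members the arrays of the groups did not overlap, against 60% of all genes. Of the 17 members with several probe sets of their own, 8 had probe sets that differed in sign, many of them below background. Of the 8 members with several probe sets above background on both arrays of a group, 2 did, Tnfrsf1b and Tnfrsf9. Tested as probe sets among all 45037, 8 of the 65 rose and 8 fell, against 22.8% of all probe sets called.

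**Figure D4:**
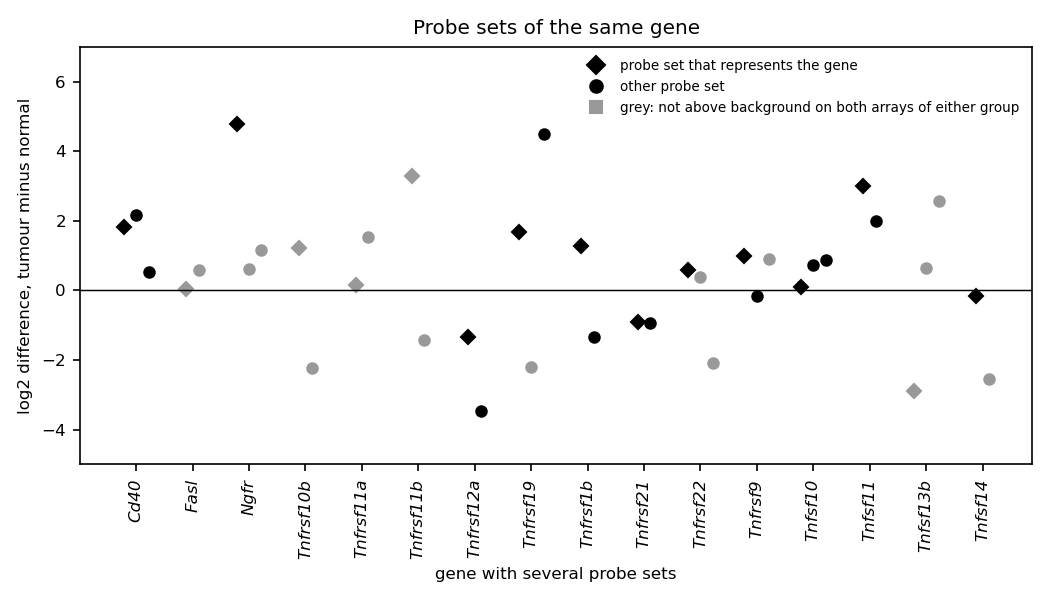
Log2 difference, tumour minus normal (vertical axis), of every probe set of the genes with several, with diamonds for the probe set that represents the gene and grey for probe sets not above background on both arrays of either group. Both Tnfsf11 probe sets are above 0 and both Tnfrsf12a probe sets below it, whereas the black ones of Tnfrsf1b and Tnfrsf9 lie on both sides.

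Above background on all 4 arrays were 15 of the 38 members, beside 9308 of all 18193 genes. Among genes that carry their signals inward these were all 18 measured TRAF proteins and adaptors, 14 of 16 death receptor arm genes and 23 of 25 NF-kB activation arm genes. The lists overlap, since Fadd stands in both the adaptor and death receptor lists and Tnfrsf10b, a member, stands in the latter. Of the 18 TRAF proteins and adaptors, 5 rose and 4 fell (median log2 difference 0.21). These 50% stand beside 29.7% of all genes, a difference that was not tested. Edaradd, the adaptor of the ectodysplasin receptor, had 236 and 209 against 778 and 695, a rise of 1.73 ± 0.12 (adjusted p = 4.34e-06). Traf6, the ubiquitin ligase that links CD40 and RANK to NF-kB, had 167 and 155 against 466 and 414 (1.45 ± 0.13, adjusted p = 2.47e-05), but its call was lost with the mean of its probe sets (0.52, adjusted p = 0.389). Traf3ip3, a TRAF3-binding protein, had 437 and 509.98 against 207 and 233 and fell by 1.10 ± 0.13 (adjusted p = 0.000143). Cradd, an adaptor with a death domain, had 103 and 151 against 61.1 and 56.8 and fell by 1.08 ± 0.24 (adjusted p = 0.00734), a call that ended when normal replicate 2 was left out (adjusted p = 0.0976).

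In the death receptor arm 4 of 16 genes rose and 2 fell (median -0.13), 37.5% called beside 29.7% of all genes. Fadd, the adaptor of Fas, had 90.2 and 86.0 against 143 and 158, a rise of 0.77 ± 0.18 (adjusted p = 0.00890) that ended with scaling to the hybridization controls (0.17, adjusted p = 0.534), when normal replicate 2 (adjusted p = 0.05003) or tumour replicate 2 (0.0678) was left out and with the mean of probe sets (0.46, adjusted p = 0.299). Casp6, an executioner caspase, had 836 and 693 against 471 and 438 and fell by 0.74 ± 0.11 (adjusted p = 0.000783). Ripk3, the kinase of necroptosis, had 249 and 288 against 155 and 168 and fell by 0.73 ± 0.15 (adjusted p = 0.00355). Faim, an inhibitor of Fas-induced death, had 209 and 253 against 329 and 309. It rose by 0.47 ± 0.14 (adjusted p = 0.0280) as deposited and differed by -0.13 with scaling to the hybridization controls. Its call held only with normal replicate 2 left out, and the adjusted p was 0.0886 to 0.170 over the other 3 removals. Casp8, the caspase that FADD recruits, had 928 and 915 against 1152 and 988 and did not pass (adjusted p = 0.141).

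The NF-kB activation arm had 3 of 25 genes higher and 4 lower (median 0.0035), 28% called, which is near the 29.7% of all genes. Tnfaip3 (A20), the enzyme that shuts off TNF signalling, had 1127 and 1011 in the normal and 491 and 467 in the tumour arrays, a fall of 1.16 ± 0.096 (adjusted p = 1.53e-05). Nfkbib, an inhibitor of NF-kB, had 300.3 and 218 against 139.9 and 149.98 and fell by 0.82 ± 0.18 (adjusted p = 0.00593), a call that ended when normal replicate 1 was left out (adjusted p = 0.0698) and with the mean of probe sets (0.314). Without probe sets that may bind several transcripts its adjusted p was 0.629. Ikbkb, the catalytic kinase that releases NF-kB, had 453.5 and 425 against 799.9 and 802. It rose by 0.87 ± 0.095 (adjusted p = 8.84e-05) on its most intense probe set and differed by -0.32 with the mean of its probe sets. Bcl3, a nuclear partner of NF-kB, had 22.9 and 19.6 against 43.0 and 58.1 and rose by 1.24 ± 0.37 (adjusted p = 0.0305), a call that ended when either normal array (adjusted p = 0.0760 and 0.115) or tumour replicate 2 (0.169) was left out and with scaling to the hybridization controls (0.233). With that scaling, 0 death receptor arm genes rose (0 at an unadjusted p below 0.05) and 10 fell, and 1 gene of the NF-kB arm rose and 17 fell, beside 7.31% of all genes higher and 28.9% lower.

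**Figure D5:**
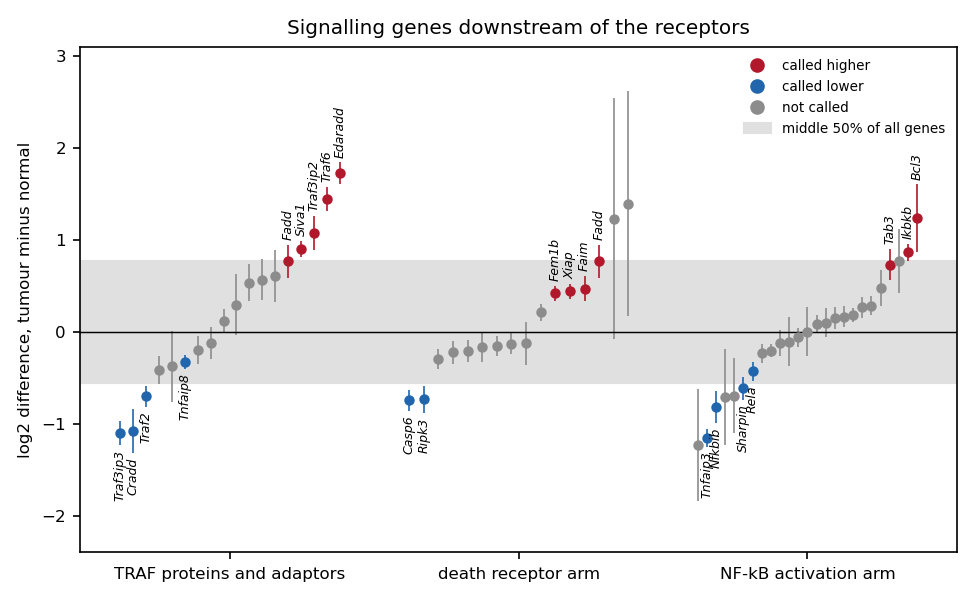
Log2 difference, tumour minus normal (vertical axis), of each measured gene in the 3 lists of signalling genes. Bars are limma's moderated standard errors, colours limma's calls and the grey band the middle 50% of all genes. Edaradd and Traf6 stand above the band and Traf3ip3, Cradd and Tnfaip3 below it, while most genes of the death receptor and NF-kB arms lie within it.

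Superfamily genes whose symbols the rule does not match were few. Relt, a receptor of lymphoid tissue, had 34.9 and 37.7 against 68.4 and 68.2, a rise of 0.91 ± 0.27 (adjusted p = 0.0318) that was lost without any 1 of the 4 arrays (adjusted p from 0.0830 to 0.116) and with scaling to the hybridization controls (0.446). The ectodysplasin genes Eda, Edar and Eda2r did not pass.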

How the data were processed

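Values were used as the authors deposited them, linear intensity of each probe set on each array. RMA stands without a version in the submitters' processing notes, and the 4 columns have nearly equal distributions. Such normalization hides a shift common to all genes. Log2 of these values was tested without an offset or a filter. Gene names came from GEO's platform annotation (34945 with 1 symbol, 932 with several, 9160 with none; 64 controls left out), and the probe set of highest mean log2 stood for a gene.

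Groups were tested with limma 3.58.1 in R 4.3.3 (lmFit, eBayes with trend and robust prior, no covariate), adjusted by Benjamini-Hochberg over 18193 genes at 0.05. The code was run on simulated data whose spread followed level as this prior assumes, with changes planted only in brighter genes. Such a run cannot speak for the calls of dim members. This prior was chosen over the default because the replicate SD had a median of 1.31 in the dimmest and 0.0838 in the brightest 25% of genes. Residual degrees of freedom were 2, and the number of arrays limits the precision. The members, lists, receptor classes and tests were chosen with earlier results of these data known. Values of every array are given for called members, a fixed set of well-known members and members with disagreeing probe sets, and up to 4 called genes of largest change are named per signalling list; Casp8 and Foxp3 were chosen after their values were seen. Where a group had no array above background, an "at least" fold, which counts each of its arrays at the background level, stands in place of a difference, or none is given. Any p-value beside such a fold comes from limma's test of the values as read, not of the bound. Alternatives covered the prior, offset, scaling, filter, probe set choice, threshold, replicate block and leaving out each array. No scan batch was stated in the sources used here.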

Additional observations from a re-analysis of the deposited data

How the results depend on the processing

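Of the 14 calls among the members, 6 (Cd27, Fas, Ltb, Tnfrsf13b, Tnfrsf1a and Tnfsf11) were lost under the default prior alone and Tnfrsf18 under none of the alternatives run. With 1 array left out, 9 of the 14 were called each time and 5 (Cd40, Tnfrsf19, Tnfrsf25, Tnfrsf9 and Tnfsf4) were not. These ranges over the 4 removals were 3 to 5 members higher and 6 to 8 lower, 2 to 3 receptors higher and 5 to 6 lower, 1 to 2 ligands higher and 1 to 2 lower, 4 to 6 adaptor genes higher and 3 to 3 lower, 2 to 3 death receptor arm genes higher and 2 to 2 lower, 1 to 3 NF-kB arm genes higher and 2 to 4 lower, and 2269 to 2669 of all genes higher and 1609 to 1868 lower.

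Limma's default prior gave 0 members higher (8 at an unadjusted p below 0.05) and 2 lower, 0 receptors higher (5 unadjusted) and 2 lower, 0 ligands higher (3 unadjusted) and 0 lower (1 unadjusted), 2 adaptor genes higher and 0 lower (3 unadjusted), 0 death receptor arm genes higher (4 unadjusted) and 0 lower (2 unadjusted), 0 NF-kB arm genes higher (4 unadjusted) and 0 lower (4 unadjusted), and 759 of all genes higher and 401 lower. Scaling to 14 hybridization controls gave 3 members, 2 receptors and 1 ligand higher and 2 ligands lower, 3 adaptor genes higher and 8 lower, 0 death receptor arm genes higher (0 unadjusted) and 10 lower, 1 NF-kB arm gene higher and 17 lower, and 1330 of all genes higher and 5250 lower. It moved Faim to -0.13 and added Tnfrsf12a and Tnfsf9 to the lower members. Averaging the probe sets of each gene gave 2 members and 0 receptors higher (2 unadjusted), 3 adaptor genes higher, 1 death receptor arm gene higher and 4 lower, and 1865 of all genes higher, and moved Tnfrsf1b to -0.035 and Ikbkb to -0.32. A threshold of 0.01 gave 3 members, 2 receptors and 1 ligand higher. The share of all genes at that threshold is not given here, so these counts cannot be read as particular to the members. Apart from these, the counts stayed within 1.5 times under an offset of 16, median centring, renewed quantile normalization, a filter at the 30th percentile and leaving out probe sets that may bind several transcripts. For changes under averaging and under scaling, the cause was not tested.

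The labels number the arrays 1 and 2 in each group without saying that a number marks a shared animal or day. Same-numbered arrays deviated together with r = 0.25 over genes with a mean log2 of at least 7 and 0.0119 over all genes. With the replicate number as a block, 7 members rose and 7 fell, and 6 NF-kB arm genes rose in place of 3. The share of all genes called with this block is not given here either, and the same limit holds. Dim signal limits many members, since 14 of 38 lacked a group with both arrays above background.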
